A study of Mus musculus with 2 samples.

Results

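Bidirectional protein-coding promoters were examined in resting, naive CD8-positive alpha-beta T cells, which become cytotoxic once they meet their antigen. A bidirectional promoter was a pair of protein-coding genes of GENCODE M21 on opposite strands, head to head, whose 5′-most transcription start sites lay at most 1000 bp apart on mm10. The region ran from start to start with 250 bp added on either side. The rule found 788 such pairs with 1553 genes, which were 7.08% of the 21938 protein-coding genes on the autosomes and the X and Y chromosomes. The rule uses positions in the annotation and no measured value. Of these genes, 23 belonged to more than 1 pair, and joining overlapping regions left 765 separate regions. The distance between the starts ranged from 0 to 996 bp with a median of 144 bp, and the middle of the distribution lay between 75.8 and 276 bp (quartiles). A total of 22 pairs lay on the X chromosome, and 84 pairs held at least 1 gene with a provisional Gm or Rik symbol.

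The data were DNase-seq, which reads the ends left where the enzyme DNase I cuts accessible DNA. The cells were primary cells of B6CASTF1/J males, adults of 2 months, with no treatment given in the labels. This strain is a cross of the inbred strains C57BL/6J and CAST/EiJ. The 2 libraries, biological replicates 2 and 3, form 1 group. Their donor label is shared and their biosample labels differ. The sources used here do not say whether separate animals were used, so spreads between the libraries may be technical. There was no second condition to compare with and no test between groups.

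A bidirectional promoter drives transcription outward in both directions from a shared stretch of DNA. Such promoters are known to lie in CpG islands, to lack a TATA box more often than not, and to be frequent among housekeeping genes of DNA repair, mitochondria and RNA processing. Motifs of the ETS family, NRF1, YY1 and the CCAAT-binding factor NF-Y are known to recur in them. A DNase I footprint is a short protected stretch inside open chromatin, where a bound protein can shield the DNA.

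The DNA between the starts of 5 pairs is shown, as examples of motif sites named in the footprint results below. The pairs were picked as examples, and the footprints over their sites need not be typical of all pairs. The sequences are from the RefSeq GRCm38 reference, which has the coordinates of mm10, and are written 5′ to 3′ on the plus strand. The minus-strand gene, named first, starts at the base before the first letter, and the plus-strand gene starts at the base after the last. Capitals mark matches, on either strand, to any of the motifs named in the section on sequence. The reference is the C57BL/6J genome, and the CAST/EiJ copy of each promoter may differ from it.
Heatr5b/Gpatch11, chr17:78835325-78835588: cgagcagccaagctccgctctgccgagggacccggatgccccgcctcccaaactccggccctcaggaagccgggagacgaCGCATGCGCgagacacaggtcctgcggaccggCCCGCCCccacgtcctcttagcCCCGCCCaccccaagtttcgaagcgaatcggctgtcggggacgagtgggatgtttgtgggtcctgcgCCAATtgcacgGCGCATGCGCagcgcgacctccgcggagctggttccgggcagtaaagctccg
Tepsin/Ndufaf8, chr11:120098732-120098927: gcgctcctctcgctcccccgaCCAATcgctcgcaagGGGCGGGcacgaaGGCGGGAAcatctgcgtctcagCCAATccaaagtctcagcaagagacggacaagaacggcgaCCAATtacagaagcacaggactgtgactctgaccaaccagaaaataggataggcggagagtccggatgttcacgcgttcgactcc
Hspd1/Hspe1, chr1:55088025-55088131: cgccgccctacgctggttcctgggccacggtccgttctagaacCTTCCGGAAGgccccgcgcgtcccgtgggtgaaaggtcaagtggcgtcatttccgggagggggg
BC049762/Clk4, chr11:51263047-51263113: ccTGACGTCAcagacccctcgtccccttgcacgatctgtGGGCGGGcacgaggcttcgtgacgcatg
Hist1h2ag/Hist1h2bj, chr13:22042945-22043213: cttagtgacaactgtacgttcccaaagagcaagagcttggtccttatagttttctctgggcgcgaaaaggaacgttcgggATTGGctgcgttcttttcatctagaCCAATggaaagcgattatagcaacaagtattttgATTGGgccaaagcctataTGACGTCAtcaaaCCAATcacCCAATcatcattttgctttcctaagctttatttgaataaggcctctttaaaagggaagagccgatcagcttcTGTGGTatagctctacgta

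The libraries differed in yield. The shorter peak list, used here throughout unless the longer one is named, held 38223 peaks in replicate 2 and 17061 in replicate 3, and the footprint lists held 146244 and 29967 intervals. In each library the distinct signal values below 2 all fell on multiples of a single step, to within 0.05 of it. If that step is 1 sequenced tag, replicate 2 was 6.05 times as deep as replicate 3. The depth itself is not given, so a promoter without a listed peak is not shown to be closed. The 2 lists of a library were not nested peak for peak. Of the shorter list, 23945 peaks were found in the longer one in replicate 2 and 10171 in replicate 3. Peaks of the longer list without such a match reached signals of 3.81 in replicate 2 and 9.71 in replicate 3. Whether these lay at other sites or at the same sites with other limits was not tested. Of 16 promoters of naive CD8 T cell marker genes, 12 had a peak within 1000 bp in replicate 2 and 4 in replicate 3 (Cd8b1, Zap70, Klf2 and Runx3). Those of Cd8a, Cd2 and Tcf7 were among the 4 with none in either. Of 17 promoters of CD4-lineage, B cell, NK cell, myeloid and erythroid marker genes, 2 had a peak in replicate 2, among them Itgam at a signal of 0.657, and none had one in replicate 3.

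Most bidirectional promoters were listed as open. A peak overlapped 723 of the 788 regions in replicate 2 (91.8%, Wilson 95% interval 89.6 to 93.5) and 679 in replicate 3 (86.2%, 83.6 to 88.4). The mean was 89.0 ± 3.95% (SD, n = 2). Over the windows of all 21938 protein-coding genes, measured in the same way, the share was 45.8% in replicate 2 and 37.2% in replicate 3, and 37.1% had a peak in both. Wilson intervals here cover counting error only.

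One-directional promoters served as the comparison. They were the 5′-most starts of 19381 protein-coding genes that were in no pair and had no other coding start within 1000 bp, each with a window of 645 bp, the length of the median pair region. A peak overlapped 41.0% of them in replicate 2 (40.3 to 41.7) and 32.3% in replicate 3 (31.6 to 33.0). The bidirectional share was therefore higher by 50.8 percentage points in replicate 2 and by 53.9 in replicate 3, with a mean of 52.3 ± 2.21 (SD, n = 2). In both libraries the Wilson intervals of the 2 classes were far apart. Counting each gene of a pair on its own, in the same 645 bp window, left the bidirectional share at 87.2 ± 4.37% (SD, n = 2). Of the one-directional genes, 910 lay head to head with a noncoding gene in the same geometry as the pairs. Measured over regions drawn as for pairs, this subset lay in between at 70.1% in replicate 2 and 60.2% in replicate 3.

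Every pair with a peak in replicate 3 also had one in replicate 2. A peak was found in both for 679 pairs (86.2%), in replicate 2 alone for 44 (5.58%), and in neither for 65 (8.25%). In replicate 3 alone it was found for 0 of 788 pairs, which allows a share of up to 0.381% (3 counts of the total, the limit used here for every 0). Over all protein-coding promoters, 8.71% had a peak in replicate 2 alone, 54.1% in neither and 0.109% in replicate 3 alone. The last share lies below that limit, so the 0 does not set the pairs apart. Of the 44 pairs with a peak in replicate 2 alone, 22 had a peak in the longer list of replicate 3. Where both libraries had a peak, the strongest peaks of the region overlapped each other in 665 of 679 pairs.

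Each peak carries a signal value assigned by the authors, whose scale is not stated. Among bidirectional promoters with a peak, the strongest peak of the region had a median signal of 5.63 in replicate 2 (quartiles 3.41 and 7.62) and 5.33 in replicate 3 (3.75 and 7.18). One-directional promoters with a peak had medians of 3.42 and 4.47. The ratio of the medians was 1.65 in replicate 2 and 1.19 in replicate 3, with a mean of 1.42 ± 0.320 (SD, n = 2), so the size of this difference varied between the libraries while its direction did not. These medians are over promoters that had a peak, and the weaker peaks of replicate 2 have no counterpart in replicate 3. Over the 679 pairs with a peak in both, Spearman's rank correlation of the signal was 0.886, a description across promoters that share their DNA sequence in both libraries.

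**Figure D1:**
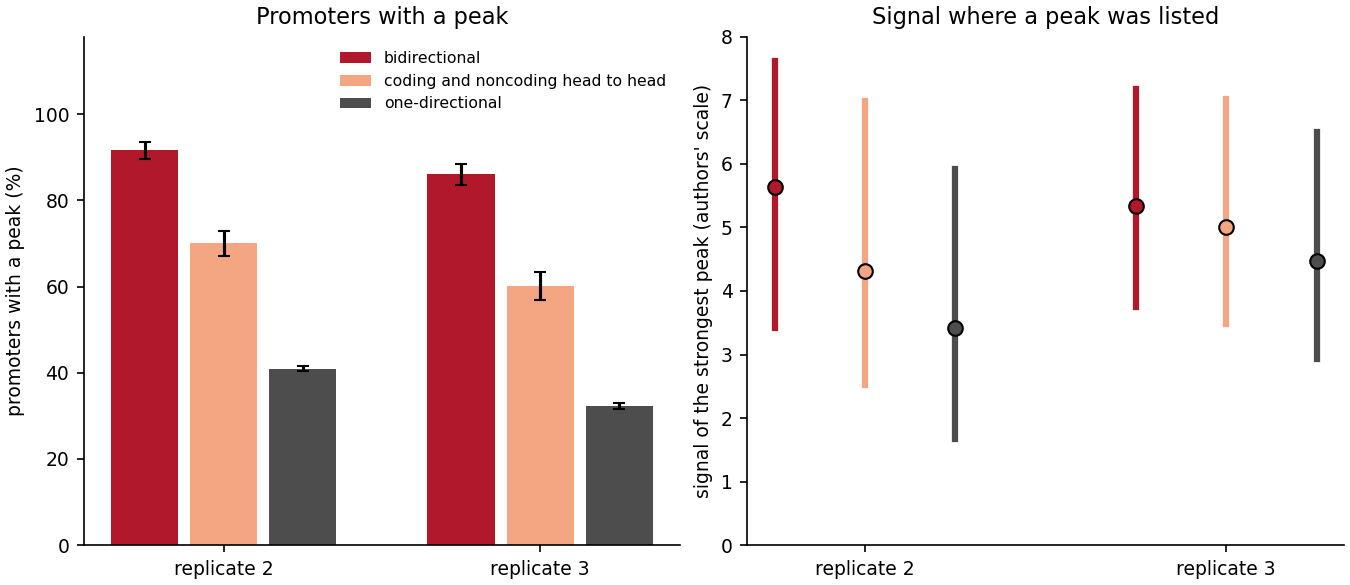
Left, share of promoters with a peak (percent, bars with Wilson 95% intervals) in replicates 2 and 3 for bidirectional pairs, coding genes head to head with a noncoding gene, and one-directional promoters. The genes of the second class are also part of the third. Right, median (point) and quartiles (line) of the signal of the strongest peak, over promoters with a peak. In replicate 2 the shares were 91.8, 70.1 and 41.0%, and the order was the same in replicate 3.

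The strongest peak had a median width of 240 bp in both libraries, against 240 bp and 220 bp over one-directional promoters. The difference of 10 ± 14.1 bp (SD, n = 2) was smaller than the spread between the libraries. More than 1 separate peak lay in the region of 21.6% of the pairs with a peak in replicate 2 and 19.6% in replicate 3, against 13.6% and 10.02% of the one-directional promoters. This share followed the length of the region. In pairs up to 100 bp apart, whose regions were no longer than the one-directional windows, it was 11.2% and 10.2%, and in pairs over 500 bp apart it was 55.1% and 44.1%.

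Footprints were more numerous in the bidirectional regions. Those with a peak held a mean of 7.30 footprints in replicate 2 and 3.05 in replicate 3, against 5.42 and 2.36 in one-directional windows. The ratio was 1.35 in replicate 2 and 1.30 in replicate 3 (mean 1.32 ± 0.0367, SD, n = 2). Pair regions run up to 1497 bp against 645 bp for the windows. Counting each gene of a pair in a 645 bp window gave a ratio of 1.25 ± 0.0205 (SD, n = 2). Per 100 bp of the strongest peak there were 2.00 footprints in replicate 2 and 1.10 in replicate 3, against 1.79 and 0.994. The strongest peak held at least 1 footprint in 99.9% of the pairs in replicate 2 and 94.6% in replicate 3.

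Of 17 head-to-head pairs listed from textbook knowledge, the rule found 7, and 6 of these had a peak in both libraries. Atm encodes the kinase that signals DNA double-strand breaks and Npat a coactivator of histone genes. Their starts lie 307 bp apart at positions 53536740 and 53537047 of chromosome 9, and the signal was 11.7 in replicate 2 and 10.2 in replicate 3, ranks 32 and 37 among all pairs with a peak. The promoter of Mcm4, a subunit of the replicative helicase, and Prkdc, the catalytic subunit of DNA-dependent protein kinase, reached 8.19 and 7.498. Hspd1 and Hspe1 encode the mitochondrial chaperonin and its lid, and their promoter, the third sequence above, reached 7.89 and 6.55. Psmb1, a proteasome core subunit, and Tbp, the TATA-binding protein, shared a promoter with signals of 6.10 and 5.24. Mrps12, of the mitochondrial ribosome, and Sars2, the mitochondrial seryl-tRNA synthetase, had 5.24 and 7.001. The first 3 of these lay above the median pair in both libraries, Psmb1/Tbp only in replicate 2 and Mrps12/Sars2 only in replicate 3.

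Brca1, of homologous recombination repair, and the autophagy receptor gene Nbr1 had a weaker peak with signals of 3.51 and 3.07, below the lower quartile of replicate 3. The region held 2 separate peaks in each library, and the strongest peak lay on different sides in the libraries. It covered positions 101552061 to 101552440 of chromosome 11, over the start of Nbr1, in replicate 2 and positions 101551821 to 101552020, over the start of Brca1, in replicate 3. Col4a4 and Col4a3, which encode chains of basement membrane collagen, start 127 bp apart on chromosome 1 and had no peak in either list of either library.

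The 10 pairs with the highest mean signal rank had signals of 13.1 to 18.4 in replicate 2 and 10.8 to 15.3 in replicate 3. Sugct, a mitochondrial CoA transferase, and Mplkip, a gene mutated in a form of trichothiodystrophy, had the strongest promoter peak of replicate 2 at 18.4, with 14.3 in replicate 3. Apaf1, the scaffold of the apoptosome, and Ikbip had the strongest of replicate 3 at 15.3, with 13.3 in replicate 2. Dcaf6, a ubiquitin ligase adaptor, and Mpc2, of the mitochondrial pyruvate carrier, had 15.0 in both libraries. Dnajb4, a co-chaperone, and Fubp1, a single-strand DNA-binding protein that acts on Myc, had 16.5 and 12.5. Nfya, the CCAAT-binding subunit of NF-Y, and Oard1 had 15.7 and 12.8. The remaining 5 were Pdcd10/Serpini1, Srsf7/Ttc39d, Fam53a/Gm9903, Srd5a1/Nsun2 and Zfp654/Cggbp1. In this group 9 pairs lay in the 2 most CpG-rich quintiles described below, and Pdcd10/Serpini1 did not.

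The pairs with the most footprints had starts over 500 bp apart, so their regions were long. Ddx5, an RNA helicase, and Cep95 had 20 footprints in replicate 2 and 7 in replicate 3. Cbx5, which encodes heterochromatin protein 1 alpha, and Hnrnpa1, an RNA-binding protein, had 17 and 7. The splicing factor gene Srsf2, paired with Mfsd11, had 16 and 7. Mob3a/Izumo4 had 14 and 11.

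Of a list of 90 T cell genes, 1 was a member. Cd8b1 encodes CD8 beta, a chain of the coreceptor that gives these cells their name, and starts 555 bp from Smyd1, a muscle methyltransferase gene, at position 71322788 of chromosome 6. Its signal was 4.17 in replicate 2 and 3.16 in replicate 3, below the median pair in each. The strongest peak lay between the starts in replicate 2, at positions 71322381 to 71322740, and over the Cd8b1 start in replicate 3, at 71322697 to 71322833. The start of Smyd1, at 71322233, lay in neither peak. This promoter was CpG-poor, with an observed to expected ratio of CpG of 0.279, and the median pair had 0.834.

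**Figure D2:**
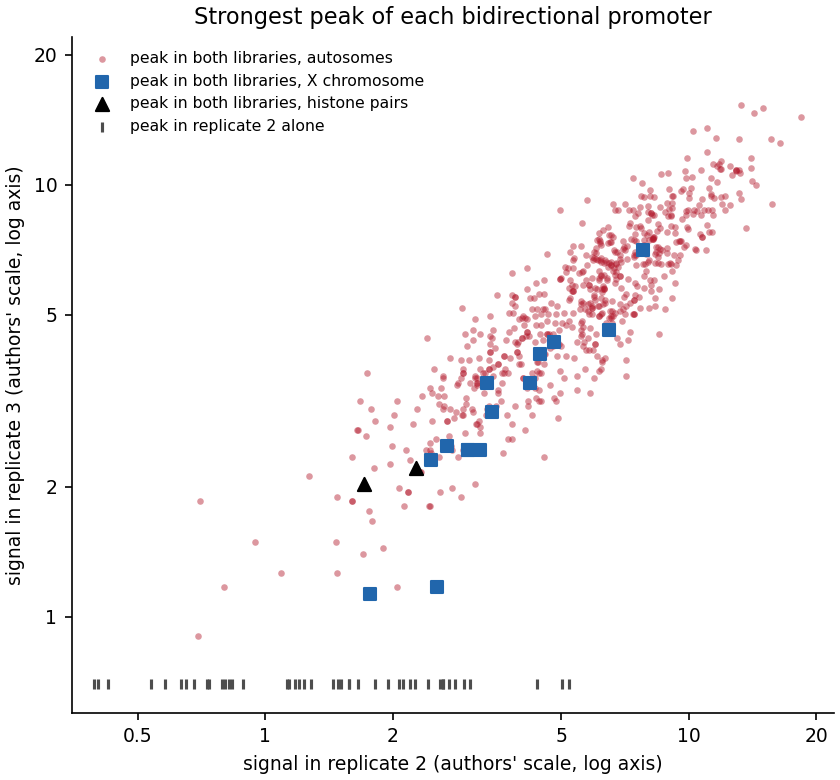
Signal of the strongest peak of each pair in replicate 2 (x axis) and replicate 3 (y axis), on the authors' scale with log axes. Points, squares and triangles are the 679 pairs with a peak in both libraries, on autosomes, on the X chromosome and of histone genes, and the ticks at the bottom are the 44 pairs with a peak in replicate 2 alone. The 44 lie mostly at low signal, with a median of 1.47 in replicate 2 against 5.90 for pairs with a peak in both.

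In 5 housekeeping groups every pair had a peak in both libraries, beside 86.2% of all pairs. Groups were formed by gene symbol, and a pair was counted when either gene belonged to the group. All 20 pairs with a gene of the mitochondrial ribosome had a peak in both libraries, with a lowest signal of 2.13 and 1.81 at Eme2/Mrps34 and a highest of 14.4 and 9.98 at Mrps18b/Ppp1r10. All 24 pairs with a gene of the respiratory chain or its assembly did, from Ndufa1/Rnf113a1 on the X chromosome (1.77 and 1.13) to Rps28/Ndufa7 (12.5 and 11.1). The same held for 9 of 9 pairs with a cytosolic ribosomal protein gene, 6 of 6 with a proteasome gene and 6 of 6 with an aminoacyl-tRNA synthetase gene. With so few pairs the lower Wilson bounds for the last 2 groups are 61.0%.

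One-directional genes of the same groups were also mostly open, at 36 of 45 for the mitochondrial ribosome, 57 of 72 for the respiratory chain, 62 of 79 for the cytosolic ribosome, 26 of 31 for the proteasome and 26 of 26 for the synthetases. The share for mitochondrial ribosome genes was thus 100% (83.9 to 100) in pairs and 80.0% (66.2 to 89.1) alone, and these intervals overlap. Pairs with a gene of DNA repair or replication had a peak in both libraries in 25 of 29 cases (86.2%), and one-directional genes of that list in 58 of 66 (87.9%). The pairs of this list with a peak in neither were Rad51c/Tex14, Pinlyp/Xrcc1 and Apex2/Pfkfb1, of which the first and second had a peak in the longer list of replicate 2, with signals of 0.612 and 0.433. The rule takes the 5′-most annotated start of a gene, which need not be the start used most in these cells.

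The gaps between the classes were wider in 3 other groups. Pairs with a zinc finger protein gene (Zfp symbols) had a peak in both libraries in 16 of 17 cases (94.1%, 73.0 to 98.95), against 199 of 359 one-directional ones (55.4%, 50.3 to 60.5). Solute carrier genes did so in 14 of 17 pairs (82.4%, 59.0 to 93.8), against 98 of 353 (27.8%, 23.4 to 32.6). Genes with a Tmem symbol did so in 23 of 26 pairs (88.5%, 71.0 to 96.0), against 71 of 203 (34.98%, 28.8 to 41.8). In all 3 groups the median CpG ratio was higher in pairs. It was 0.775 against 0.646 for zinc finger, 0.796 against 0.549 for solute carrier and 0.786 against 0.591 for Tmem genes. Both genes belonged to the group in 3, 0 and 1 of these pairs. The part of CpG content and of the partner gene in these gaps was not tested. The vomeronasal receptor gene Vmn1r4 starts 90 bp from Nt5c3, a nucleotidase gene, and this pair had signals of 4.05 and 4.92. Among one-directional olfactory and vomeronasal receptor genes, 0 of 1453 had a peak in both, which allows a share of up to 0.206%. Collagen genes had no peak in their 1 pair, Col4a4/Col4a3, and had one in both libraries in 1 of 40 one-directional cases. The keratin symbol pattern matched 1 pair, Trim46/Krtcap2, which had no peak, and Krtcap2 is not a keratin gene.

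Replication-dependent histone genes stood apart from the other groups. These genes encode the bulk of nucleosomal histones and are known to be transcribed mainly in S phase, and 13 of their 14 pairs joined 2 histone genes. A peak was found in both libraries for 2 of the 14 pairs (14.3%, 4.01 to 39.9), in replicate 2 alone for 9, and in neither for 3. The interval lies below the 83.6 to 88.4% interval of all pairs in both. The 11 pairs with a peak in replicate 2 had signals from 1.14 to 2.72 with a median of 1.71, all below the lower quartile of all pairs. Their peaks were wide, with a median of 380 bp. The 2 pairs with a peak in both were Hist2h2ac/Hist2h2be on chromosome 3 (2.28 and 2.21) and Bola1/Hist2h2ab (1.71 and 2.03). Hist1h2ag/Hist1h2bj, the last sequence above, had the highest signal of the group in replicate 2 at 2.72 and no peak in the shorter list of replicate 3, though its longer list held one at 2.21. The longer list of replicate 3 held a peak at 6 of the 14 pairs. Their CpG ratio had a median of 0.766, so they were not CpG-poor. Histone genes are near-identical copies, how multiply mapping reads were treated is not stated in the sources used here, and the part of this in the low values was not tested. One-directional histone genes had a peak in both libraries in 10 of 39 cases.

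The classes differed in CpG content, and in both the share with a peak was higher where CpG content was higher. The ratio of observed to expected CpG in the central 500 bp had a median of 0.834 in pairs and 0.525 in one-directional promoters, and the median GC content was 62.2% and 55.2%. Quintiles of this ratio were formed over both classes together, with limits at 0.169, 0.382, 0.673 and 0.842. Pairs fell into them very unevenly, with 12, 24, 111, 265 and 376 pairs from the poorest to the richest, and 81.4% of pairs lay in the top 2 against 38.3% of one-directional promoters.

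In every quintile the bidirectional share was the higher in both libraries, though the poorest rests on 2 and 1 of 12 pairs. In the richest quintile it was 98.1% against 82.7% in replicate 2 and 94.1% against 72.5% in replicate 3, differences of 15.4 and 21.7 points. In the fourth quintile it was 94.7% against 73.6% and 89.8% against 62.0%, differences of 21.2 and 27.8 points. In the third it was 82.0% against 42.8% and 73.0% against 28.6%. These differences within quintiles were smaller than the pooled 52.3 points throughout. The signal and footprint ratios did not narrow throughout. In the richest quintile the signal ratio was 1.35 in replicate 2 and 1.14 in replicate 3, and the footprint ratio 1.20 and 1.16. In the third quintile the signal ratio was 1.70 and 1.11, and the footprint ratio 1.64 and 1.60, above the pooled 1.35 and 1.30. In the 2 poorest quintiles, which rest on 10 or fewer pairs with a peak each, the signal ratio was 4.16 and 1.75 in replicate 2.

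**Figure D3:**
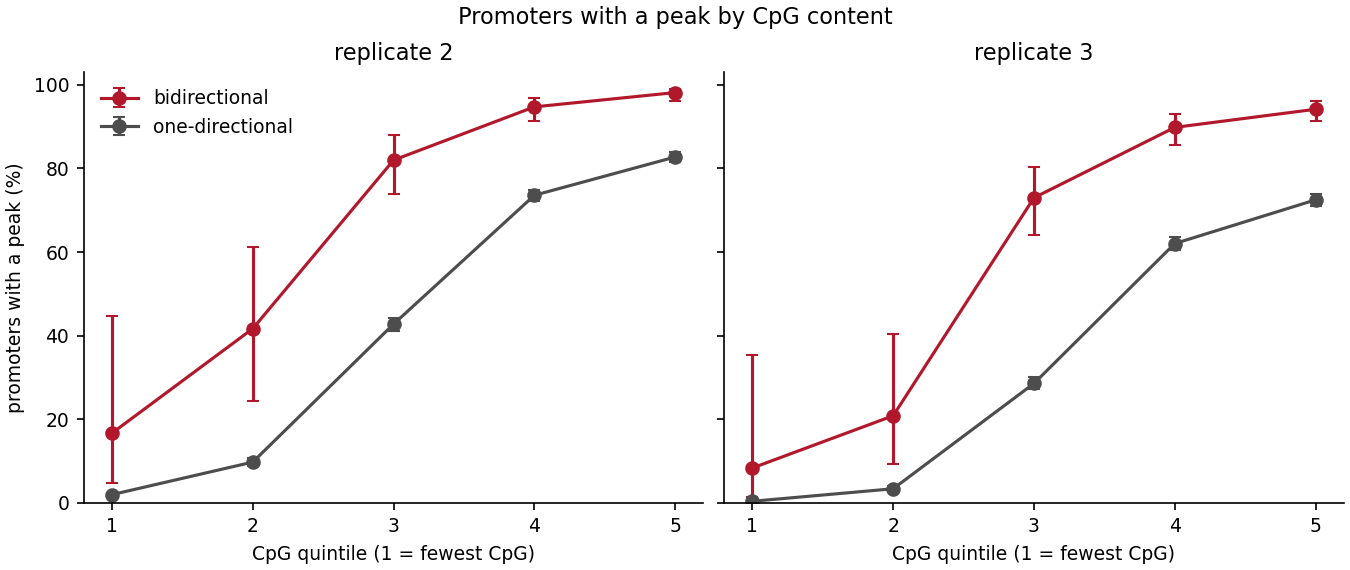
Share of promoters with a peak (percent, points with Wilson 95% intervals) by quintile of CpG ratio in replicate 2 (left) and replicate 3 (right), for bidirectional and one-directional promoters. In the richest quintile of replicate 2 the shares were 98.1 and 82.7%, and the 2 poorest quintiles hold only 12 and 24 pairs, so their intervals are wide.

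CpG-poor pairs were few, and their distance separated them. Of the 36 pairs in the 2 poorest quintiles, 19 had starts more than 500 bp apart, and 11 of these had a peak in replicate 2. Of the 17 closer pairs, 1 had a peak in replicate 2, Ifit1bl2/Ifit1, with a signal of 0.791. Pairs over 500 bp apart have their starts outside the central window over which CpG was measured. Both facts were noted after the values had been seen.

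The share with a peak was lowest for the most widely spaced pairs. These pairs also had the lowest median CpG ratio, 0.582 against 0.834 to 0.857 in the other bins. The part of CpG content in the lower share was not tested. In replicate 2 the share with a peak was 93.4% for pairs 0 to 100 bp apart (287 pairs), 89.7% for over 100 to 200 bp (213), 91.9% for over 200 to 300 bp (111), 95.5% for over 300 to 500 bp (88) and 87.6% for over 500 bp (89). In replicate 3 the shares were 89.2, 86.9, 82.9, 88.6 and 76.4%. Neighbouring bins had overlapping Wilson intervals in both libraries. Between the closest and the most widely spaced pairs the intervals overlapped in replicate 2 (89.9 to 95.7 and 79.2 to 93.0) and were apart in replicate 3 (85.1 to 92.3 and 66.6 to 84.0). The shortest pair with a peak in both was Nsa2/Gfm2 on chromosome 13, which have the same annotated start base at 97137937. Nsa2 encodes a ribosome assembly factor and Gfm2 a mitochondrial translation factor, and the signals were 4.49 and 3.16. The longest was Btf3l4/Txndc12, 987 bp apart, with 3.54 and 3.30.

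The arrangement of the peaks followed the distance. A single peak covered both starts in 58.2% of the pairs with a peak in replicate 2 and 54.6% in replicate 3. In pairs up to 100 bp apart it did so in 93.3% and 89.1%, in the next bin in 67.0% and 54.6%, then in 33.3% and 35.9%, and at over 300 to 500 bp in 10.7% and 11.5%. At over 500 bp it did so in 0 of 78 pairs in replicate 2 and 0 of 68 in replicate 3, which allow up to 3.85% and 4.41%. There a single peak over both starts would have to be wider than 500 bp. The strongest peaks of these pairs had width quartiles of 220 and 295 bp in replicate 2 and 200 and 280 bp in replicate 3. The fall with distance is thus largely given by peak width and spacing. Separate peaks over the 2 starts were the less common outcome even there, in 28.2% and 13.2%. A peak over 1 start only was found in 47.4% and 61.8% of these widely spaced pairs.

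The region of Dcaf6/Mpc2 held 2 separate peaks in replicate 2 and 3 in replicate 3, and the strongest peak changed side between the libraries. At Dcaf6/Mpc2, with starts at 165460465 and 165461037 of chromosome 1, it covered 165461021 to 165461320 in replicate 2 and 165460461 to 165460680 in replicate 3, with 15.0 in each. At Mcm4/Prkdc, 489 bp apart, it covered 15637361 to 15637640 of chromosome 16 in both libraries, over the Mcm4 start. At Pdcd10/Serpini1, 691 bp apart, it lay between the starts in both. Here a named peak shows open DNA at that place, not which gene was transcribed.

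The centre of the strongest peak lay a median of 41.5 bp from the nearer start of the pair in replicate 2 (quartiles 17.5 and 87.0) and 40.5 bp in replicate 3 (16.5 and 81.5), on either side of it. Measured along the plus strand, an arbitrary direction for such a pair, it lay between −42.0 and 42.3 bp of the midpoint (quartiles) in replicate 2 and between −46.5 and 46.3 bp in replicate 3. In one-directional promoters its median position was −26.5 bp from the start in replicate 2 and −28.5 bp in replicate 3, negative being upstream. At 500 bp to the left and right of the midpoint, 10.9% and 11.9% of the pairs had a peak in replicate 2. In one-directional promoters the same positions, upstream and downstream, had 2.31% and 8.10%. These shares are over all promoters of a class, of which 91.8% of pairs and 41.0% of one-directional promoters had a peak in replicate 2. They are therefore not shares of open promoters and do not compare the spread of peaks between the classes.

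**Figure D4:**
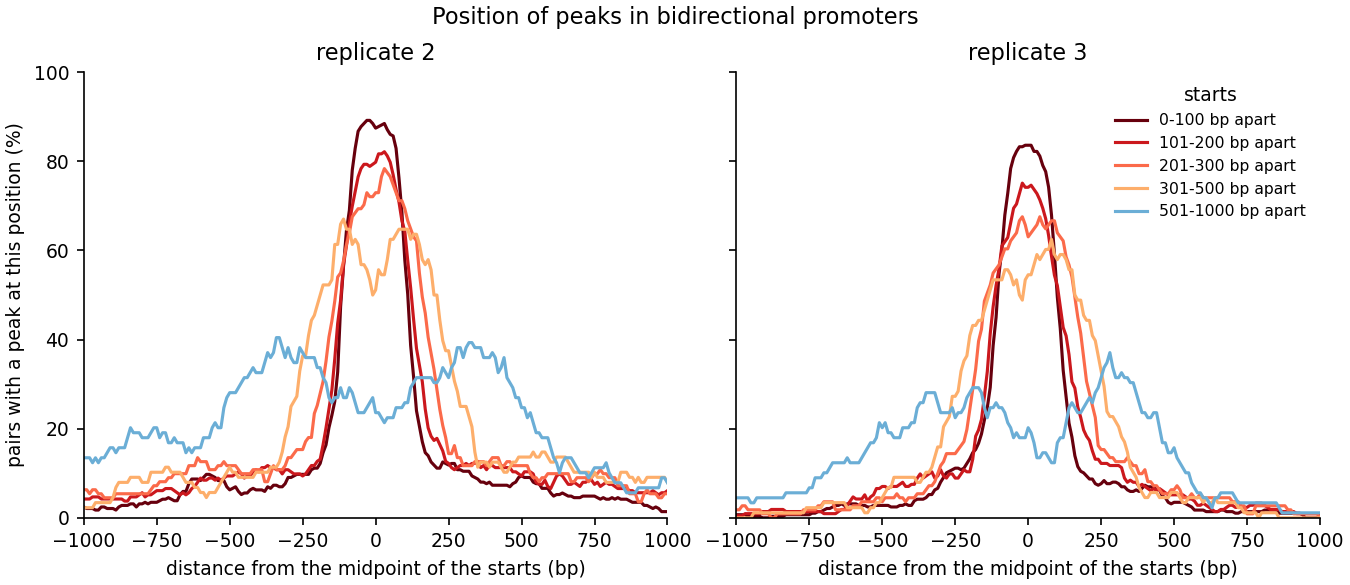
Share of pairs (percent, y axis) with a peak at each distance from the midpoint of the starts (bp, x axis, plus-strand direction) in replicate 2 (left) and replicate 3 (right), for pairs grouped by the distance between the starts. Pairs up to 100 bp apart reach 89.2% and 83.6% near the midpoint, and pairs over 500 bp apart reach 40.4% and 37.1% some 340 and 280 bp from it, with a dip at the midpoint.

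The highest footprint share lay further from the midpoint in pairs over 300 to 500 bp apart than in the closest pairs. In pairs up to 100 bp apart, 40.4% of the pairs in replicate 2 had a footprint 30 bp from the midpoint and 32.1% at it. At over 300 to 500 bp, 27.3% had one at −150 bp and 20.4% at the midpoint. The same order was seen in replicate 3, at 12.5% (at −160 bp) and 6.82%. Positions at the maximum were picked from the profile and describe it only.

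Sequence content was described with 13 motifs, searched on both strands in 300 bp windows centred on the midpoint of each pair or of each one-directional window. Overlapping matches to 1 motif were counted as 1 site. The motifs were ETS CCGGAAG, NRF1 GCGCATGCG, YY1 AAGATGGCG, SP/KLF GGGCGGG, NF-Y CCAAT, CREB/ATF TGACGTCA, E-box CACGTG, E2F TTCCCGCC, ZNF143 ACTACAATT, the CGCG box TCTCGCGAG, the TATA box TATAAA, RUNX TGTGGT and the CTCF consensus. A match is a run of letters and not a shown binding site, and its absence says only that these letters are not in the window. At least 1 of the 13 was found in 689 of the 788 pairs.

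Of the 13, ETS matches showed the widest gap between the classes in percentage points. ETS factors such as GABPA are known activators of housekeeping promoters, and ETS1 is abundant in T cells. A match lay in 28.2% of the pair windows (25.1 to 31.4) and in 9.77% of the one-directional ones (9.36 to 10.2). Among promoters with a peak in both libraries the shares were 31.4% and 22.6%, and within the 2 most CpG-rich quintiles they were 31.8% and 18.4%. The share among pairs fell from 38.0% at 0 to 100 bp between the starts to 6.74% at over 500 bp, where the window around the midpoint no longer reaches the starts. Pairs with an ETS match had a peak in 98.6% of cases in replicate 2 and 95.9% in replicate 3, against 89.0% and 82.3% of those without. Their median signals hardly differed, at 5.65 against 5.63 and 5.28 against 5.33. Of the 222 pairs with a match, 204 lay in the 2 most CpG-rich quintiles, which held 81.4% of all pairs. The part of CpG content in the gap in peak share was not tested. At Hspd1/Hspe1 an ETS match on both strands lies 44 bases into the sequence above, without a footprint over it in either library.

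NRF1, a regulator of nuclear genes for mitochondria, and YY1 had rarer matches. NRF1 matches lay in 5.08% of pair windows and 2.37% of one-directional ones, and YY1 matches in 5.46% and 1.66%. All 40 pairs with an NRF1 match had a peak in both libraries. Of the pairs without a match, 91.3% had a peak in replicate 2 and 85.4% in replicate 3. Of the 40, 39 lay in the 2 most CpG-rich quintiles, where 89.8% and 94.15% of all pairs had a peak in both. The part of CpG content was not tested. A footprint covered at least 50% of the length of 40 of 42 NRF1 sites inside the strongest peaks in replicate 2 (95.2%) and 21 of 40 in replicate 3 (52.5%). One-directional promoters had similar shares, at 93.6% and 57.8%. Heatr5b/Gpatch11, the first sequence above, has NRF1 sites at bases 81 and 213, and both lay under a footprint in both libraries. Its signals were 5.98 and 6.78.

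CREB/ATF matches were found in 4.82% of pair windows and 2.28% of one-directional ones. A footprint covered 30 of 36 sites in replicate 2 (83.3%) and 18 of 34 in replicate 3 (52.9%), against 80.5% and 37.7% in one-directional promoters. Pairs with a CREB/ATF match had a median signal of 7.07 in replicate 2 and 6.75 in replicate 3, against 5.58 and 5.24 for pairs without. At BC049762/Clk4, whose second gene encodes a kinase of splicing factors, the site is at base 3 of the sequence above and lay under a footprint in both libraries, and the signals were 11.0 and 11.9. For YY1, a footprint covered 13 of 34 sites in replicate 2 and 0 of 30 in replicate 3, and for ETS 128 of 225 (56.9%) and 17 of 215 (7.91%). In one-directional promoters the shares were 34.3% and 6.45% for YY1 and 46.9% and 9.04% for ETS. For both motifs the shares in replicate 3 were thus lower in pairs. Replicate 3 had fewer footprints in all, as given above.

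The CCAAT box of NF-Y was found in 44.7% of pair windows and 38.0% of one-directional ones. Footprints covered 21.04% of its sites in pairs in replicate 2 and 6.34% in replicate 3. In one-directional promoters the shares were 17.6% and 8.65%, so the order of the classes differed between the libraries. At Tepsin/Ndufaf8 the CCAAT boxes at bases 72 and 112, but not that at base 22, and an E2F match at base 50 lay under footprints in both libraries. Over all pairs, footprints covered 55.6% of E2F sites inside the strongest peaks in replicate 2 and 16% in replicate 3. In one-directional promoters these shares were 31.3% and 7.28%. Ndufaf8 encodes an assembly factor of respiratory complex I, and the signals of this pair were 11.4 and 8.76. Hist1h2ag/Hist1h2bj has 5 CCAAT matches, of which that at base 81 lay under a footprint in both libraries.

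TATA boxes went the other way, with 4.82% of pair windows (3.53 to 6.55) and 12.6% of one-directional windows (12.2 to 13.1) holding a match. Within the CpG-rich quintiles the shares were 3.9% and 5.09%. RUNX matches were found in 9.77% and 15.3% and, within the CpG-rich quintiles, in 9.36% and 9.29%. SP/KLF matches lay in 47.5% of pair windows and 32.3% of one-directional ones, but within the CpG-rich quintiles in 51.3% and 58.8%, so the order of the classes turned. Pairs with an SP/KLF match had a median signal of 6.13 in replicate 2 and 5.83 in replicate 3, against 5.04 and 4.92 without.

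**Figure D5:**
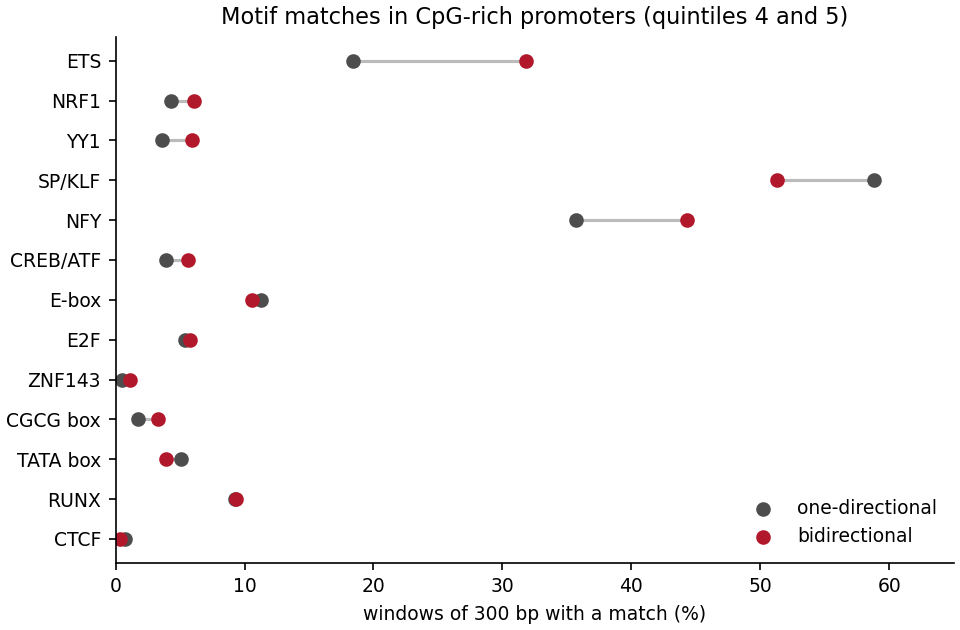
Share of 300 bp windows (percent, x axis) with a match to each of 13 motifs (y axis), for bidirectional and one-directional promoters of the 2 most CpG-rich quintiles. ETS shows the widest gap in favour of pairs (31.8 and 18.4%), and SP/KLF the widest the other way (51.3 and 58.8%).

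Pairs on the X chromosome had lower signal. Of the 22, 16 had a peak in replicate 2 (72.7%) and 14 in replicate 3 (63.6%), against 92.3% and 86.8% on the autosomes. Male cells carry a single X chromosome, and the part of this was not tested. The median signal of X-linked pairs with a peak was 3.12 in replicate 2 and 2.73 in replicate 3, against 5.72 and 5.38 on the autosomes, a ratio of 0.527 ± 0.0259 (SD, n = 2). One-directional promoters had a ratio of 0.563 ± 0.00188 (SD, n = 2), so one-directional promoters on the X chromosome were lower as well. Fam90a1b/Apoo, whose second gene encodes a subunit of the mitochondrial MICOS complex, had the strongest X-linked peak at 7.82 and 7.05. Idh3g/Ssr4 had 4.81 and 4.34. These X-linked pairs were singled out after their values had been seen.

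Pairs with a peak in replicate 2 alone included 3 of moderate signal. Med29, of the Mediator complex, and Paf1, of the RNA polymerase II elongation complex named after it, had 5.21 in replicate 2. Slc25a11, a mitochondrial oxoglutarate carrier, and Rnf167 had 5.01, and Proser3/Hspb6 had 4.39. All 3 were in the longer list of replicate 3, at 4.07, 4.16 and 3.21. The next of this kind, 4921536K21Rik/Dusp18 and Lsr/Fam187b, had 3.04 and 2.95, and the first of them was in that longer list too.

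Pairs without a listed peak were enumerated last. Of the 65, 10 had a peak in the longer list of replicate 2, and 51 had no position with a false discovery rate of 0.05 or less in either library. By CpG quintile, from the poorest, they numbered 10, 14, 20, 14 and 7. In alphabetical order, 8 of the 48 without provisional symbols were Apex2/Pfkfb1, Aspa/Spata22, Best1/Rab3il1, Bhmt2/Dmgdh, Cabp4/Gpr152, Ccr10/Cntnap1, Cd160/Pdzk1 and Col4a4/Col4a3. They include genes known from other tissues, such as Dmgdh of choline breakdown in liver, Best1 and Cabp4 of the retina, and Cntnap1 of myelinated axons. Cd160, a receptor of NK and memory T cells, and Ccr10, a chemokine receptor of skin-homing lymphocytes, are immune genes among them. None of these 8 had a peak in the longer list of either library.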

How the data were processed

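DNase-seq was deposited for 2 libraries of 1 group. Per the labels, the authors' files are on mm10. Each library's 2 peak lists, footprint list and list of false discovery rates were made from its own alignments and not pooled, per the deposited notes. The authors' peak lists give a signal value per peak, of unstated scale. In the deposited list of false discovery rates, q-values ran up to 0.05. The deposited footprint lists carry a constant score of 0.01, so only their intervals were used. The sources used here name no aligner, callers or filters.

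Start sites came from transcripts of the GENCODE M21 basic annotation. A shared base pair (1 bp) counted as overlap of a promoter and a peak. Where a region held several peaks, the strongest gave signal and width. CpG content was taken over 500 bp and motifs over 300 bp. Shares carry Wilson 95% intervals, and values over libraries a mean and SD. Promoters are not replicates, so no test was made. Pairs named were textbook pairs, the 10 of highest mean signal rank, the first 8 in alphabetical order without a peak, T cell gene pairs, the 5 strongest with a peak in replicate 2 alone, the 5 with most footprints, and the shortest and longest. A few genes and pairs that these rules name are not reported here. Further pairs are named as the ends of a group or where said to be chosen after their values were seen. Others, such as Heatr5b/Gpatch11, Tepsin/Ndufaf8, BC049762/Clk4 and Tas1r1/Nol9, were picked as examples and not by a rule. The members, gene lists and motifs were chosen with earlier results of these data known. In all, 14 alternatives were tried and 3 more added after seeing the data. The functions were tested on simulated data. Intervals were computed with scipy 1.17.1 and tables with pandas 2.3.3 and numpy 2.4.6 under Python 3.11.15. Figures were drawn with matplotlib 3.10.9.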

Additional observations from a re-analysis of the deposited data

How the results depend on the processing

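With 2 libraries the spread between them rests on 1 difference, replicate 3 had fewer peaks and footprints, and neither depth nor signal scale is stated, which limits any comparison of levels between libraries. The 8 main values were recomputed under 14 alternatives and 3 more added after seeing the data, 129 values in all. Of these, 14 moved by more than the spread between libraries or out of the Wilson interval. No ratio or difference changed direction, and a share could not do so. Values that left out 1 library could not count as moved, since each library lies within the SD of the 2. Alternatives that altered only the one-directional class left the values of pairs alone unchanged by construction. The signal ratio ranged from 1.19 to 1.65 and the width difference from 0 to 20 bp, both ends set by leaving out 1 library.

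With peaks at or above the median signal only, the bidirectional share was 81.4%, the one-directional share 28.6%, the share in both libraries 74.1% and the footprint ratio 1.20. With the longer list the share in both was 89.0% and the footprint ratio 1.41. When each library was cut to its 17061 strongest peaks, the difference in share was 55.0 points and the footprint ratio 1.26. The difference was 54.8 points without one-directional promoters near any other gene start, 50.03 points with every annotated start of a one-directional gene, and 49.2 points without olfactory, vomeronasal and keratin symbols. Counting pairs gene by gene gave a footprint ratio of 1.25. The share with 1 peak over both starts was 63.0% with a largest distance of 500 bp and 46.1% with overlapping 5′ ends added, as their construction implies.

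Without replicate 2 or replicate 3 in turn, the bidirectional share ranged from 86.2 to 91.8%, the one-directional share from 32.3 to 41.0%, the difference from 50.8 to 53.9 points, the signal ratio from 1.19 to 1.65, the footprint ratio from 1.30 to 1.35 and the share with 1 peak over both starts from 54.6 to 58.2%. The share in both libraries has no value with 1 library. No paired analysis was possible because the libraries form 1 group.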

Other observations

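Among pairs with no listed peak were several with genes known for the germline, imprinting or other tissues, chosen here after their values had been seen. Smc1b, of meiotic cohesin, and Ribc2 start 114 bp apart on chromosome 15 in a CpG-rich window (observed to expected ratio 1.01) and had no position with a false discovery rate of 0.05 or less in either library. Peg3/Usp29 and Sgce/Peg10 are imprinted pairs, with ratios of 0.526 and 0.736, and had none either. Plcz1/Capza3, for a sperm phospholipase and a sperm actin-capping subunit, had a ratio of 0.191. Duox2/Duoxa2, for the thyroid oxidase and its maturation factor, start 451 bp apart and had no peak.

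Of the 36 pairs in the 2 CpG-poorest quintiles, 6 had a peak in both libraries. Those named next are examples picked from these 6. Tas1r1/Nol9, of a taste receptor and a ribosomal RNA processing enzyme, start 759 bp apart with a ratio of 0.160 between them, and had signals of 7.83 and 9.35. Haghl/Ccdc78 (907 bp, ratio 0.201) had 6.75 and 6.28. Sirt6/Ankrd24 (838 bp, ratio 0.265) had 5.74 and 4.16, the second below the median pair.

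Pairs with a CGCG box match had a peak in 18 of 23 cases in replicate 2 and 17 of 23 in replicate 3, against 92.2% and 86.5% of those without. Where they had a peak their median signal was higher, at 7.34 against 5.62 in replicate 2 and 6.41 against 5.31 in replicate 3. Pairs with an E2F match did so in 40 and 38 of 47, against 92.2% and 86.5%.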
